A study of Mus musculus with 12 samples.

Results

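The genes described here are 5 secreted proteins of the CCN family and 2 intracellular proteins that are widely read out together with them as responses to the coactivator YAP. The CCN genes are Ccn1, Ccn2, Ccn3, Ccn4 and Ccn5, known under the older names Cyr61, Ctgf, Nov, Wisp1 and Wisp2, and the other two are Ankrd1 and Amotl2. They were chosen by name: every probe set whose only gene symbol on the array was one of the 7 was followed over time. All 7 genes were found, of 12393 named genes, with 11 probe sets of the 20379 that carried 1 symbol. MB114 cells, a line of mouse microvascular endothelial cells, were placed on Matrigel, a tumour-derived basement membrane gel that prompts endothelial cells to arrange themselves into capillary-like cords. RNA was taken after 1, 5, 15 and 25 h on the gel, from 3 samples at each time that the labels call biological replicates 1 to 3, without saying what separated them. The p-values therefore measure the spread between these samples. Affymetrix arrays were used, 12 in all, 1 for each sample. All 4 groups were the same line on the same gel and differed in time alone, no genetic change or added agent was named for any of them, and cells off the gel were not analysed here. The 1 h samples are thus the earliest cells on the gel, not untreated cells, and a single line stands for the cell type.

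CCN proteins are matricellular: they are secreted into the matrix, where they bind integrins, heparan sulfate proteoglycans and growth factors and change how a cell responds to them. CCN1 and CCN2 are made quickly by spread, tense or serum-stimulated cells and are known to act in blood vessel growth, CCN3 is mostly described as restraining proliferation, CCN4 was found as a target of Wnt signalling, and CCN5 lacks the C-terminal domain of its relatives. YAP and its relative TAZ enter the nucleus when cells are spread and under tension and bind TEAD transcription factors there, whereas the kinases of the Hippo pathway keep them in the cytoplasm. Ccn1, Ccn2, Ankrd1 and Amotl2 are standard transcripts for reading this activity, and AMOTL2, a scaffold of endothelial junctions, also binds YAP and restrains it. The arrays measured transcripts alone, and no measure of YAP protein or its place in the cell was analysed here.

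The promoters of Ccn1, Ankrd1 and Amotl2 are shown because only these of the 7 genes had an entry in the promoter sequences used. Each holds the TEAD core, the element through which YAP reaches its targets. Each sequence holds the 250 bases before the start of the gene, from RefSeq with the build GRCm38.p6, 5′ to 3′ on the gene's own strand. Capitals mark GGAATG, the TEAD core, or CATTCC, its reverse complement. Ccn1 is shown from chr3:145649986-145650235 on the minus strand, Ankrd1 from chr19:36119845-36120094 on the minus strand and Amotl2 from chr9:102717554-102717803 on the plus strand. Entries matched 3 of the 7 genes, and Ccn2, Ccn3, Ccn4 and Ccn5 are named only.
Ccn1: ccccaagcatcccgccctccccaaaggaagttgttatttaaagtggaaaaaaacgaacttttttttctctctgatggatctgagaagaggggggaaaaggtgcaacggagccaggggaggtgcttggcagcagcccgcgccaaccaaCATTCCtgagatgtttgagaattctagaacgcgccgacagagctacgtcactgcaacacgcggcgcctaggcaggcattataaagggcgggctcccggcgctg
Ankrd1: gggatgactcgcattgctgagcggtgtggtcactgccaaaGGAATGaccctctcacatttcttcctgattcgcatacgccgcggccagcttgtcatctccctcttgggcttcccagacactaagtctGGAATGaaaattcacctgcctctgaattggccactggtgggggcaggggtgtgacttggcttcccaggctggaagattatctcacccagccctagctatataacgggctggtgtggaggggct
Amotl2: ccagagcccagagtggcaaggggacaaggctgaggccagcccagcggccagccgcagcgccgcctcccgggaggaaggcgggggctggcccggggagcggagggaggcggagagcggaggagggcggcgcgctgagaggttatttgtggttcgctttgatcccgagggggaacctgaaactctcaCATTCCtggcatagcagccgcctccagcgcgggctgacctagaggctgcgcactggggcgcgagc
The core was found at 1 place before Ccn1, -103 to -98 from the start, and at 1 place before Amotl2, -65 to -60. Before Ankrd1 it was found at 2 places, -210 to -205 and -123 to -118. Of 32851 promoter windows of this length, 4153 (12.6%) held the core on either strand. Other motifs were searched on both strands too, and none of their matches overlapped the core. The AP-1 motif TGANTCA (6.75% of all windows) and the CArG box of SRF (1.47%) had a match in 0 of the 3 windows. The SMAD motif CAGACA (17.1% of all windows) had 1, before Ankrd1 at -137 to -132. A match describes the letters of a window and is not a measured binding site.

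Each value is a MAS5 signal, the brightness of a probe set without a log, and the deposited arrays had been scaled to a common trimmed mean (500.1 to 500.2). Signals were compared between times on the log2 scale with limma. Signals are mean ± SD of n = 3 samples, a fold change is the ratio of geometric mean signals, and a gene was said to have risen or fallen when its adjusted p from limma, by Benjamini-Hochberg over 7379 tested genes, was under 0.05. A gene was tested when 3 or more arrays showed it at 183.1 or above, the median signal. Samples of the same number deviated together, so the adjusted p with the replicate number as a block is given wherever it changes a call described here. The fit without the block leaves this pairing out, so a gene that it does not call is not shown to be unchanged. Array medians ran from 153.6 to 209.1. Of 10 endothelial markers only Cdh5, the junction cadherin, passed the brightness filter. The means of the others ran from 1.70 (Vwf) to 140 (Egfl7), while 7 of 8 fibroblast markers passed. These 10 markers thus give the endothelial label of the line little support on these arrays. Endothelial genes outside the list were not counted, and Thbd, listed under parietal endoderm, averaged 1077 and passed the filter. The summed signal of the 10 endothelial markers was 480.4 to 831.2 at 1 h and 571.8 to 875.6 at 25 h. The precision is limited by 3 arrays per time: an exact permutation test of 3 against 3 cannot give a p below 0.1. The number of cells of a type and the amount of RNA per cell cannot be told apart in such bulk samples.

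Without the block, 4 of the 6 tested genes changed over the 4 times, and each of these was highest at 1 h. They were Ccn1 (adjusted p = 0.00896 by limma's F test), Ccn2 (0.0206), Ccn4 (0.000281) and Amotl2 (0.00293), beside 34.9% of all tested genes. Ankrd1 (0.172) and Ccn5 (0.169) did not pass, and both did with the replicate block (0.000683 and 0.0477), where 55.1% of all genes passed. Ccn3 was too dim to be tested. Of the 6 tested genes, 2 fell by 5 h, 3 by 15 h and 4 by 25 h, and 0 rose. The background for these counts is that 1.65% of all tested genes differed at 5 h (0.772% lower), 23.8% at 15 h (8.44% lower) and 36.7% at 25 h (15.1% lower). With the replicate block the counts were 3, 5 and 6, the last of them including a rise of Ccn5, beside 7.77%, 40.2% and 51.2% of all genes. In fits that left out 1 array the counts were 0 to 2 at 5 h, 2 to 5 at 15 h and 3 to 6 at 25 h. The 3 comparisons share their 1 h arrays. The median change of all tested genes was 0.04 at 5 h, 0.12 at 15 h and 0.13 at 25 h (log2), and that of the 6 genes was -1.22, -1.41 and -1.94.

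**Figure D1:**
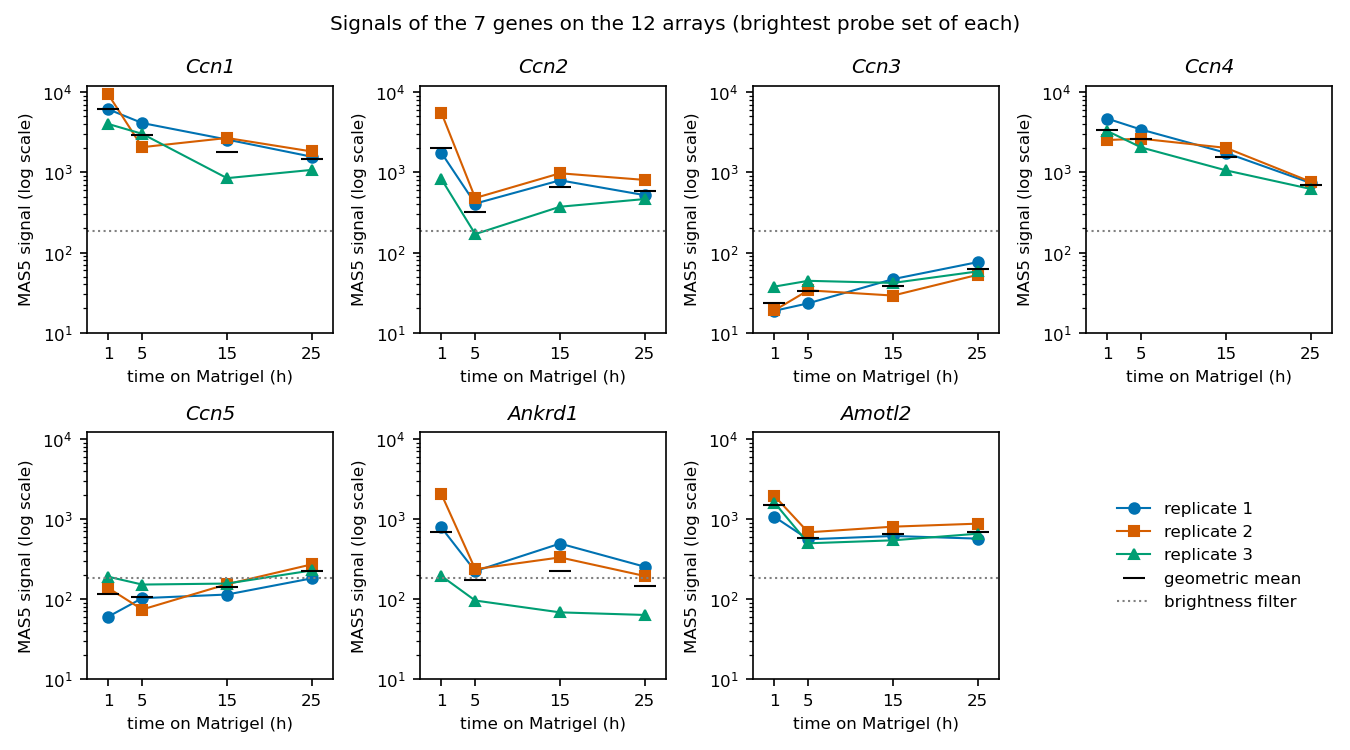
MAS5 signals of the 7 genes (vertical axes, log scale) against hours on Matrigel (horizontal axes, to scale) for replicates 1 to 3, with a black bar at the geometric mean of each time and a dotted line at the brightness filter (183.1). Ccn1, Ccn2, Ccn4, Ankrd1 and Amotl2 start high at 1 h, Ccn5 ends above its start, and Ccn3 stays under the filter on all 12 arrays.

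Ccn1, which binds integrins and is made early by adhering endothelial cells, was at its highest at 1 h and fell 4.23-fold by 25 h. Its signals at 1 h were 6140.3, 9408.0 and 4026.7 in replicates 1, 2 and 3. They were 4137.2, 2067.3 and 3032.3 at 5 h, 2574.2, 2692.5 and 848.3 at 15 h, and 1569.9, 1825.5 and 1075.4 at 25 h. The 1 h samples overlapped those of 5 h by replicate 1 at 5 h alone, which exceeded replicate 3 at 1 h, and stood above all samples of 15 and 25 h. Ccn1 fell 3.41-fold by 15 h (log2 change -1.77 ± 0.44, SE; adjusted p = 0.0116 by limma) and further by 25 h (-2.08 ± 0.44; adjusted p = 0.00264), in 3 of 3 equally numbered pairs each time. At 5 h the log2 change was -1.06 ± 0.44 (adjusted p = 0.307). By mean the order was 1, 5, 15 and 25 h, and no step between neighbours in it passed (adjusted p = 0.307, 0.285 and 0.943). From 5 to 25 h the change of -1.02 passed with the block alone (adjusted p = 0.0889, and 0.0154 with it). The fall by 15 h lost its call without the 4 arrays numbered 1 (adjusted p = 0.0785), and the F test did too (0.104).

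The dimmer probe set of Ccn1 ran in parallel with the one shown (r = 0.989 over 12 arrays, on the log2 scale), and both report the same gene, so they are not independent. Its mean went from 3330.7 ± 1254 at 1 h to 1666.2 ± 417 at 5 h, then to 1242.4 ± 632 at 15 h and 961.3 ± 384 at 25 h. In a fit of all 20379 probe sets it was lower at 15 and at 25 h than at 1 h (2.89-fold and 3.49-fold; adjusted p = 0.0423 and 0.0109), where 9.51% and 18.1% of the probe sets differed.

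Ccn2, a fibrogenic relative of Ccn1 and the most used YAP target, fell early and, with the replicate block, rose part of the way back. Its signals at 1 h were 1764.3, 5592.1 and 829.1 in replicates 1, 2 and 3, and 408.1, 479.3 and 169.8 at 5 h. At 15 h they were 796.9, 975.9 and 372.9, and at 25 h 519.8, 805.7 and 465.2. All 1 h samples stood above all 5 h and 25 h samples, and replicate 3 at 1 h lay among the 15 h samples. Ccn2 fell 6.27-fold by 5 h (log2 change -2.65 ± 0.60, SE; adjusted p = 0.0471 by limma, and 0.000233 with the block). It stood 3.48-fold below 1 h at 25 h (-1.80 ± 0.60; adjusted p = 0.0326), and the change by 15 h, -1.61, passed with the block alone (adjusted p = 0.0687, and 0.00088 with it). Each fall was seen in 3 of 3 pairs.

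From 5 h onward Ccn2 was higher again in every equally numbered pair. The log2 change from 5 to 15 h was 1.04 ± 0.60 (adjusted p = 0.257), with 0.97, 1.03 and 1.14 in pairs 1, 2 and 3, and that from 5 to 25 h was 0.85 (adjusted p = 0.3). Both rises passed with the block, in which the SE was 0.29 (adjusted p = 0.0155 and 0.0278). The order of the means was 1, 15, 25 and 5 h, where the step from 15 to 25 h did not pass (adjusted p = 0.984; 95% confidence interval -1.49 to 1.11, log2), and the other steps passed with the block alone.

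The early fall of Ccn2 without the block stood near the threshold: it kept its call in 10 of 26 alternatives and lost it in 10 of 12 fits that left out 1 array (adjusted p 0.0524 to 0.135), all but those without 1 h replicate 3 or 15 h replicate 3. The fold was 3.76 without 1 h replicate 2 (adjusted p = 0.123) and 9.77 without 1 h replicate 3. With the block and without 1 h replicate 2, a setting chosen after seeing the data, the fall was 4.53-fold (adjusted p = 0.00033). The fall by 25 h lost its call without 1 h replicate 1 (adjusted p = 0.061) or 2 (0.133, and 2.09-fold), without 25 h replicate 1 (0.0838) or 3 (0.0893) and without the 4 arrays numbered 1 (0.191), and it was 5.42-fold without 1 h replicate 3. Over the 4 times the F test was lost without 1 h replicate 1 (0.0524) or 2 (0.0588) and without the arrays numbered 1 (0.189).

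Ccn4, found as a target of Wnt signalling, was lower at each later time by mean and fell furthest by 25 h. Its signals at 1 h were 4695.3, 2539.3 and 3291.0 in replicates 1, 2 and 3, and 3426.6, 2636.9 and 2050.5 at 5 h. They were 1755.4, 2025.2 and 1060.9 at 15 h, and 737.4, 763.3 and 621.2 at 25 h. The samples of 1 and 5 h overlapped, those of 15 h lay below both, just under the lowest of 5 h, and those of 25 h lay below all others. By 25 h Ccn4 had fallen 4.82-fold from 1 h (log2 change -2.27 ± 0.28, SE; adjusted p = 8.49e-05 by limma) and 3.76-fold from 5 h (-1.91 ± 0.28; adjusted p = 0.00038), both in 3 of 3 pairs and in 26 of 26 alternatives. By 15 h it had fallen 2.18-fold (adjusted p = 0.0121). Between neighbours in the order 1, 5, 15 and 25 h the changes were -0.36, -0.77 and -1.14 (adjusted p = 0.626, 0.0843 and 0.104), and the latter steps passed with the block (0.0128 and 0.00633). The call at 15 h was lost without 1 h replicate 1 (0.0564), 15 h replicate 3 (0.0543) or the arrays numbered 1 (0.105).

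A second probe set of Ccn4 gave the same course (r = 0.984 over 12 arrays). It averaged 2366.9 ± 575 at 1 h and 487 ± 77.8 at 25 h, a fall of 4.80-fold (adjusted p = 0.000477 over all 20379 probe sets), but its 2.00-fold difference at 15 h did not pass (0.0722).

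Ccn5, which is made by smooth muscle and responds to oestrogen, was highest at 25 h, at a low signal throughout. It reached the filter on 3 arrays only, 1 of them at 1 h and 2 at 25 h, so it was tested mainly through its highest group. At 1 h it read 60.2, 137.2 and 189.7 in replicates 1, 2 and 3, at 5 h 102.4, 73.9 and 151.5, at 15 h 113.7, 153.0 and 155.9, and at 25 h 181.2, 270.7 and 227.4. The 25 h samples stood above all of 5 and 15 h, and replicate 3 at 1 h lay within them. The log2 change was 0.94 ± 0.42 (SE) from 1 to 25 h (adjusted p = 0.093 by limma, and 0.0294 with the block) and 1.09 ± 0.42 from 5 to 25 h (0.0606, and 0.0156 with the block), higher in 3 of 3 pairs in both. No step between neighbours in the order 25, 15, 1 and 5 h passed (adjusted p = 0.767, 0.687 and 0.928).

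Ccn3 was under the filter on 12 of 12 arrays in both of its probe sets, between 12.7 and 75.9. The brighter probe set read 18.7, 18.9 and 37.5 at 1 h, 23.2, 33.7 and 44.3 at 5 h, 46.5, 29.0 and 41.7 at 15 h, and 75.9, 52.7 and 58.1 at 25 h, so that its 25 h samples were its 3 highest. The other read 22.9 ± 9.46 at 1 h and 46.2 ± 15.6 at 25 h. In a fit of all probe sets the log2 change from 1 to 25 h was 1.38 ± 0.43 (SE; adjusted p = 0.0399) for the first and 1.05 ± 0.54 (adjusted p = 0.217) for the second. Of all probe sets, 18.1% were called in that fit. Signals under 44.9, the 25th percentile of all signals, are not known to lie above background, and 8 of the 12 signals of the brighter probe set were under it.

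Ankrd1, a nuclear and sarcomeric ankyrin repeat protein best known from strained heart muscle, was highest at 1 h in each replicate but spread widely between replicates. Its signals at 1 h were 782.1, 2051.7 and 194.1 in replicates 1, 2 and 3, and 222.8, 236.0 and 95.7 at 5 h. At 15 h they were 492.2, 330.7 and 68.1, and at 25 h 253.0, 193.7 and 63.2. The 1 h samples spanned a ratio of 10.6 and overlapped the samples of every later time through replicate 3. The log2 change was -1.98 ± 0.86 (SE) at 5 h, -1.60 at 15 h and -2.22 at 25 h, each of them in 3 of 3 pairs, and none passed limma's test (adjusted p = 0.331, 0.198 and 0.0602). With the block the SE was 0.36 and all 3 passed (adjusted p = 0.00509, 0.00355 and 0.000225). Without 1 h replicate 2 but with the block the falls were 2.69-fold, 2.06-fold and 3.16-fold (adjusted p = 0.0207, 0.0202 and 0.000892), against 3.96-fold, 3.04-fold and 4.65-fold with it. Between later times no change of Ankrd1 passed (adjusted p = 0.804 from 5 to 15 h, 0.861 from 5 to 25 h and 0.943 from 15 to 25 h). The second probe set followed the first (r = 0.969) with means from 831 ± 901 at 1 h to 142 ± 68.6 at 25 h. Of 8 markers of heart muscle, the main site of Ankrd1, 1 passed the filter (Tnnt2), Myh6 averaged 16.3, and their summed signal was 359 to 566.5 at 1 h, 565 to 1552.7 at 5 h, 589.7 to 1465.4 at 15 h and, at 25 h, 312.6 to 622.4. The part of these markers in the level of Ankrd1 was not tested.

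Amotl2 was lower by 5 h and at both later times. It read 1062.7, 1943.8 and 1603.0 at 1 h in replicates 1, 2 and 3, 556.5, 680.1 and 496.3 at 5 h, 612.3, 800.5 and 540.4 at 15 h, and 567.7, 872.8 and 653.9 at 25 h. Every 1 h sample stood above every later sample, and the later times overlapped one another. The falls from 1 h were 2.60-fold at 5 h (log2 change -1.38 ± 0.25, SE; adjusted p = 0.0168 by limma), 2.32-fold at 15 h (adjusted p = 0.00489) and 2.17-fold at 25 h (adjusted p = 0.00381), each in 3 of 3 pairs. In the order 1, 25, 15 and 5 h the first step passed and the others did not (adjusted p = 0.981 and 0.691), with a 95% confidence interval for the change from 5 to 25 h of -0.28 to 0.80 (log2). Both later falls held in 26 of 26 alternatives. The fall at 5 h lost its call without 1 h replicate 2 (0.0646) or 3 (0.0585), without 5 h replicate 1 (0.0564) or 3 (0.0612), without the arrays numbered 1 (0.176) and with the 6 arrays of these times alone (0.0621).

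**Figure D2:**
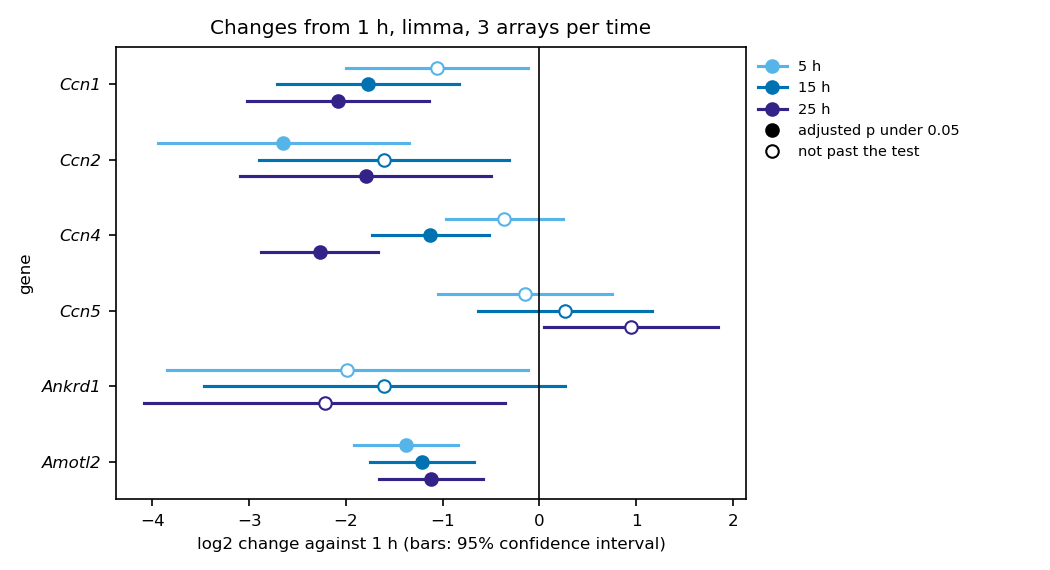
Log2 change from 1 h (horizontal axis) of the 6 tested genes (vertical axis) at 5, 15 and 25 h, from limma with 3 arrays per time; bars are 95% confidence intervals and filled points have an adjusted p under 0.05. All filled points lie left of 0, the intervals of Ankrd1 are the widest, and Ccn5 is the only gene whose point at 25 h lies right of 0.

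Changes were also tested between the later times. From 5 to 25 h 1 of the 6 genes fell (Ccn4) and 0 rose, beside 32% of all tested genes called (14.6% lower), and 4 passed with the block, Ccn1 and Ccn4 lower and Ccn2 and Ccn5 higher, beside 47.6%. From 5 to 15 h 0 of 6 passed limma's test, with 1 at an unadjusted p under 0.05, beside 14.5% of all genes called, and 2 did with the block, Ccn4 lower and Ccn2 higher (32.7% of all genes). From 15 to 25 h 0 of 6 passed (1 at an unadjusted p under 0.05; 0.772% of all genes called), and with the block 1 did, Ccn4 (4.26%). Against 5 h, Ccn1 was thus lower and Ccn2 higher at 25 h with the block alone, while Ccn4 was lower at 25 h in both fits.

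The order of the replicates was the same at all 4 times in Ccn2 and in part in other genes. Replicate 2 had the highest Ccn2 signal at 4 of 4 times and replicate 3 the lowest at 4 of 4, with mean deviations from the time mean of 0.77 and -0.84 (log2). For Ankrd1, replicate 3 was the lowest at 4 of 4 times and deviated by -1.39 on average, while replicates 1 and 2 shared the highest place. Amotl2 was highest in replicate 2 at 4 of 4 times (0.32), and Ccn1 was lowest in replicate 3 at 3 of 4 (-0.53). Ccn5 went against this, with its highest signal in replicate 3 at 3 of 4 times (0.36). Same-numbered arrays deviated together over all tested genes too (r of 0.328 to 0.758). Other YAP and TEAD targets did not follow the offset of Ccn2 as a list: their median deviation in replicate 2 was -0.11 (5 of 15 genes above their time mean), and that of SRF targets was -0.26 (2 of 18). In replicate 3 these medians were 0.01 and 0.19. What set the replicates apart was not tested.

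Across the 12 arrays, Ccn2 and Ankrd1 had the highest Pearson's r among the 15 pairs of tested genes (0.870 on the log2 scale, Spearman's rho = 0.748). Spearman's rho was higher for Ccn2 with Amotl2 (0.909) and for Ccn1 with Ccn4 (0.825). The same r over deviations from the time means was 0.873, and without 1 h replicate 2 the r was 0.750, below the 0.865 of Ccn1 with Ccn4. Ccn2 with Amotl2 had r = 0.843 and Ccn1 with Ankrd1 0.809, while Ccn4 had r = 0.793 with Ccn1 but 0.306 with Ccn2. Ccn5 ran opposite to Ccn4 (r = -0.749). These are descriptions over 12 arrays that share 4 times and 3 replicate numbers, and both enter each r.

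**Figure D3:**
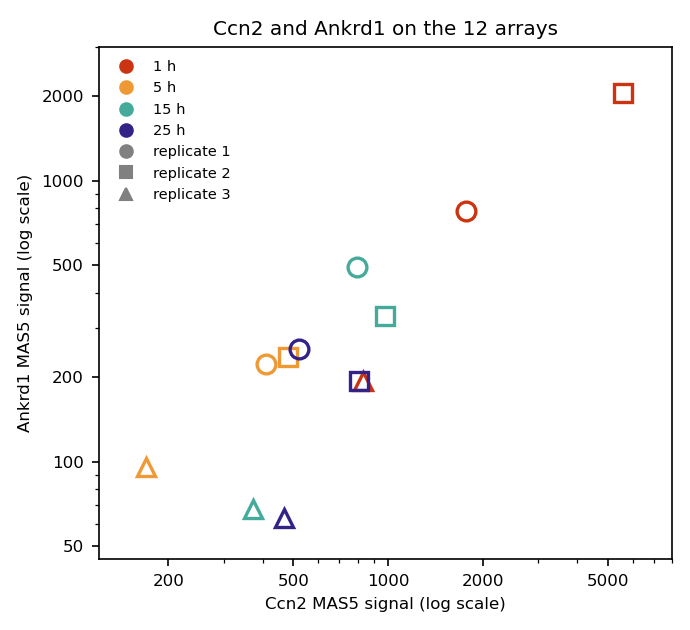
Ankrd1 against Ccn2 MAS5 signal on each of the 12 arrays (both axes log scale), with colour for time and shape for replicate. The point of 1 h replicate 2 is the highest in both genes (5592.1 and 2051.7), and the replicate 3 triangles lie lowest in Ankrd1 at each time.

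The 3 tested genes most like each of these in their log2 signals over the 12 arrays, by Pearson's r, are given as a description. For Ccn1 they were Ung (0.968), Lrp2 (0.947) and Cherp (0.930), and for Ccn2 Irs1 (0.921), Ovgp1 (0.914) and Dido1 (0.905). Ccn4 was closest to Mtbp (0.976), Mki67 (0.971) and Pkmyt1 (0.969). Ankrd1 was closest to Epb41l2 (0.931), Fez2 (0.899) and Msh6 (0.894), and Ccn5 to Usp25 (0.911), Tmem45a (0.910) and 4932438A13Rik (0.889). For Amotl2 they were Bhlhe40 (0.898), Fosb (0.894) and Klf6 (0.892).

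Other YAP and TEAD targets changed in both directions. Of 19 listed genes 15 were tested, and 0 rose and 1 fell by 5 h, 2 rose and 3 fell by 15 h, and 2 rose and 2 fell by 25 h, with median changes of -0.41, -0.33 and -0.39 (log2). Beside these stand the shares of all genes that rose, 0.881%, 15.4% and 21.6%, and those that fell, given above. At 25 h the 4 of 15 called genes are a share below the 36.7% of all tested genes. The 5 h fall was F3, tissue factor, which starts coagulation. F3 went from 921 ± 222 at 1 h to 134 ± 23.9 at 5 h (6.81-fold; adjusted p = 0.000158 by limma), 245 ± 55.4 at 15 h and 426 ± 53.5 at 25 h. It rose again 3.20-fold from 5 to 25 h (adjusted p = 0.000343), in 26 of 26 alternatives. Gadd45b, a stress and growth arrest gene, fell 2.13-fold by 25 h (4503 ± 852 to 2096.4 ± 137, adjusted p = 0.000465) and Fjx1 3.44-fold by 15 h (adjusted p = 0.00338; lost without the filter, where another probe set stood for it, 1.94-fold, 0.0886). Fjx1 was dim, at 195 ± 35.7 at 1 h and 57.4 ± 15.3 at 15 h, and passed the filter only through samples of 1 and 5 h. With 44.9 added to every signal its fall by 15 h was 2.34-fold. Dock5, an activator of Rac, rose 1.86-fold by 25 h (437 ± 54.6 to 809 ± 66.3, adjusted p = 0.00225). Nt5e, which makes adenosine, rose from 20.5 ± 11.4 at 1 h, a level not known to lie above background, to 324 ± 139 at 15 h and 318 ± 262 at 25 h (adjusted p = 0.0149 and 0.0347). It passed the filter only through samples later than 1 h, so its rise rests on the samples that admitted it to the test. At 25 h it was higher in 2 of 3 pairs and the groups overlapped, and the fold of 8.48 was 25.6 without 25 h replicate 3. After 44.9 was added to every signal as an offset, its folds were 5.38 and 3.92, and its calls were lost in several alternatives, at 15 h without 1 h replicate 1 (0.0577), 15 h replicate 2 (0.0501) or the arrays numbered 1 (0.165) and at 25 h in 8 of 26. With the block 0 rose and 5 fell at 5 h, and 3 rose and 6 fell at 25 h, beside 7.77% and 51.2% of all tested genes called. At 15 h, not using the block, the count of 5 called genes was 2 without 1 h replicate 1 and 2 without 15 h replicate 2.

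Of the coactivators themselves, Yap1 rose from 5 to 25 h with the block alone. It read 2807.6 ± 131 at 1 h and 2416.5 ± 351 by 5 h, then 2924.8 ± 222 by 15 h and, lastly, 3247.3 ± 568 at 25 h. Its log2 change from 5 to 25 h was 0.42 (adjusted p = 0.0748, and 0.0124 with the block), higher in 3 of 3 pairs though the groups overlapped. No other pair of times passed for Yap1 or Wwtr1, which encodes TAZ, with or without the block. From 1 to 25 h the log2 change of Yap1 was 0.20 (95% confidence interval -0.17 to 0.56, adjusted p = 0.393), and Wwtr1 read 2302.2 ± 285 and 2301.6 ± 485 (-0.01, -0.57 to 0.54, adjusted p = 0.973). Of 26 genes of the Hippo pathway and its TEAD factors 20 were tested, of which 0 rose and 1 fell by 5 h, and 2 rose and 4 fell both by 15 h and by 25 h, with medians of -0.05, -0.25 and -0.35. Of all tested genes 1.65% were called at 5 h, 23.8% at 15 h and 36.7% at 25 h. At 25 h the 6 of 20 called genes of the list are a share not above this background. The falls included those of the scaffolds Wwc1 and Wwc2, which activate the kinases. Wwc1 went from 516 ± 53.2 to 95.3 ± 64.2 at 25 h (6.66-fold, adjusted p = 0.000867; 4.14-fold without 25 h replicate 2 and 4.33-fold with the offset) and Wwc2 from 1899 ± 287 to 812 ± 116 (2.34-fold, adjusted p = 0.00289). Wwc2 had fallen by 5 h already (2.81-fold, adjusted p = 0.015, lost in 6 of 26 alternatives: without 1 h replicate 1 or 2 or 5 h replicate 2 or 3, 0.056 to 0.0806, with the 6 arrays of these times alone, 0.0621, and without the arrays numbered 1, 0.132). Sav1, the adaptor of the upstream kinases, rose 1.68-fold by 25 h (adjusted p = 0.00302; 0.0523 without the arrays numbered 1). With the block 2 rose and 2 fell at 5 h, beside 7.77% of all tested genes called. At 15 h the count of 6 went down to between 1 and 3 without 1 h replicates 1, 2 or 3 or 15 h replicates 2 or 3.

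Of 12 listed receptors of CCN proteins 10 were tested, and 1 rose and 0 fell by 5 h, 3 rose and 2 fell by 15 h and 2 rose and 2 fell by 25 h, with medians of 0.08, -0.13 and -0.05. The 4 of 10 called at 25 h stand beside 36.7% of all tested genes (21.6% higher and 15.1% lower), a share near the background. At 5 and 15 h 1.65% and 23.8% of all tested genes were called. Lrp1, an endocytic receptor that binds CCN2, rose 6.31-fold by 25 h (708 ± 40.0 to 4564 ± 1142, adjusted p = 1.74e-05) and the integrin chain Itgb5 2.80-fold (2099.8 ± 206 to 5963 ± 1423, adjusted p = 0.000492). In the other direction, the integrin chains Itga6, which pairs in the laminin receptors, fell 5.01-fold (180 ± 23.3 to 37.1 ± 12.04, adjusted p = 0.000888; 2.75-fold with the offset) and Itga5, of the fibronectin receptor, 3.00-fold (2026 ± 693 to 646 ± 66.2, adjusted p = 0.00118). The 25 h level of Itga6 is not known to exceed background, and it passed the filter through its early samples. Itgb3 passed the filter only through samples later than 1 h, so its rise rests on the samples that admitted it to the test. It rose from 28.0 ± 22.7 at 1 h to 273 ± 61.8 at 5 h (adjusted p = 0.0323), and its 1 h level is not known to exceed background. The fold was 4.44 after the offset, and it kept this call in 15 of 26 alternatives (up to 0.353 without the arrays numbered 1). Its value at 25 h was 96.3 ± 79.8 (adjusted p = 0.0985 against 1 h).

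SRF and MRTF targets, another set of genes that responds to actin tension, showed falls and no rises without the block. Of 20 listed genes 18 were tested, and 1 fell by 5 h, 8 by 15 h and 6 by 25 h, with medians of -0.55, -0.80 and -0.69. Of all tested genes 0.772%, 8.44% and 15.1% fell by these times. With the block the falls were 8, 14 and 14, beside 0, 1 and 1 rises. The shares of all tested genes called with the block, in either direction, were 7.77%, 40.2% and 51.2%. By 25 h the actin-binding gene Tagln had fallen 7.43-fold (2885.5 ± 1505 to 380 ± 166, adjusted p = 0.000584), Tpm1, a tropomyosin, 2.37-fold (adjusted p = 0.00148) and Srf itself 1.95-fold (adjusted p = 0.00527). Fhl2 was the gene that fell by 5 h (2.42-fold, adjusted p = 0.0073). Its call was lost without the arrays numbered 1 (2.15-fold, 0.288), where 0 genes of the list passed at 5 h, and 2 did without 5 h replicate 1. Markers of pericytes and smooth muscle share Acta2, Tagln and Cnn1 with this list, and 5 of 8 passed the filter. Their summed signal was 9244.8 to 22704 at 1 h, 8342.2 to 17025 at 5 h, 4397 to 6484.3 at 15 h and, at 25 h, 4167.5 to 6108.8. The samples of 1 and 5 h overlapped in this sum, and those of 15 and 25 h lay below both. The defining smooth muscle marker Myh11 averaged 21.3. The sum of the fibroblast markers was 36331 to 48383 at 1 h and 32128 to 45254 at 5 h. It was higher late, at 48638 to 68386 at 15 h and 52070 to 78450 at 25 h. This sum came mainly from Col1a1 and Col1a2 (means of 15150 and 19440). The sum of the leukocyte markers was higher late too (2305.4 to 5494.1 and 7113.7 to 10984), but it came mainly from 2 of 7 genes. These were Cd14 and Csf1r (means of 3601 and 2003), and the other markers averaged 110.1 or less. The defining leukocyte marker Ptprc was at 42.3 or below on every array. The part of these markers in the falls of Ccn1, Ccn2, Ccn4, Ankrd1 and Amotl2 was not tested.

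**Figure D4:**
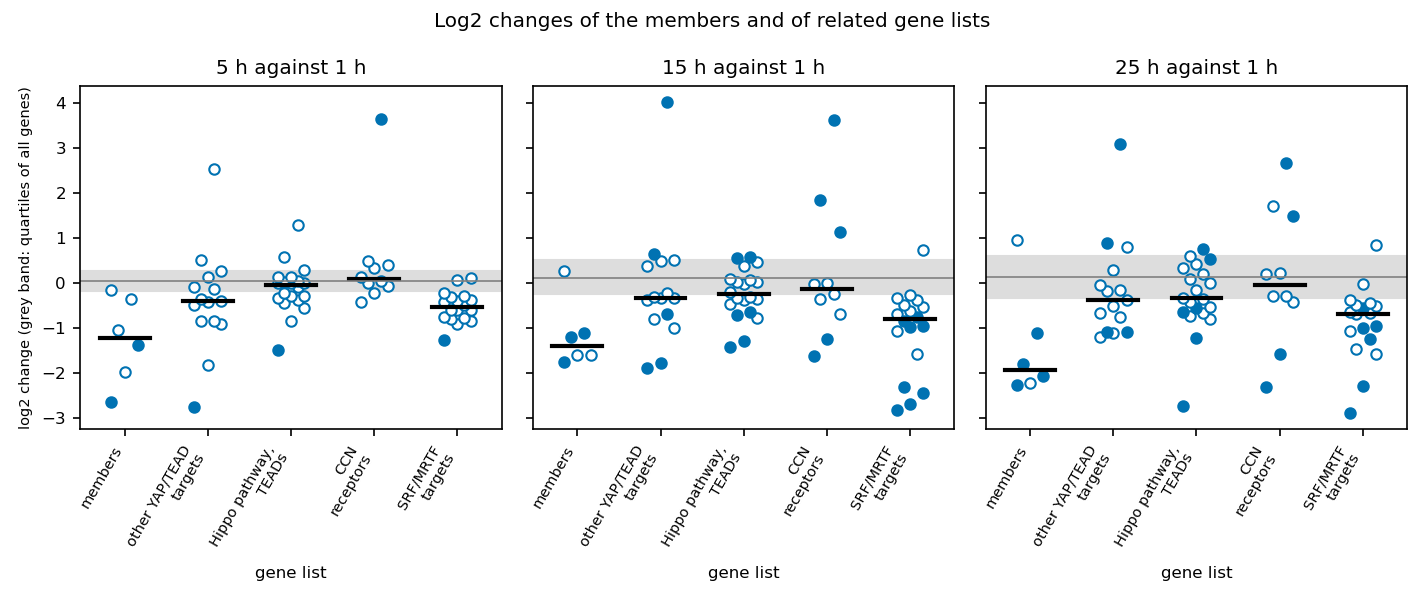
Log2 change from 1 h (vertical axis) of each tested gene, by list (horizontal axis), at 5, 15 and 25 h; filled points have an adjusted p under 0.05, black bars are list medians, and the grey line and band are the median and quartiles of all 7379 genes. The 6 genes described here have medians of -1.22, -1.41 and -1.94, and those of the other YAP and TEAD targets are -0.41, -0.33 and -0.39.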

How the data were processed

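RNA of 12 samples was measured on Affymetrix arrays. The authors deposited MAS5 signals, a linear intensity for every probe set of an array, as the submitters' processing notes name that tool. No version, setting or detection call is given in the sources used here. Samples were assigned to times and replicate numbers by their titles. Gene symbols came from GEO's platform annotation: of 22690 probe sets 20379 had 1 symbol, 691 several and 1555 none, 64 were controls and 1 had empty values, and updating by gene ID changed 0 symbols.

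Signals were log2-transformed without an offset. Probe sets at or above 183.1 on 3 or more arrays were kept and the brightest stood for its gene (7379 genes). limma 3.58.1 in R 4.3.3 fitted 1 mean per time to all 12 arrays (8 residual degrees of freedom) with eBayes and an intensity trend. Tests were 2-sided. The pipeline was tested on simulated data. Deviations of equally numbered arrays from their time means correlated with r of 0.328 to 0.758, and the nearest array had the same number for 12 of 12. The replicate numbers thus pair the samples. The main fit does not use this pairing, and the fit with the block does.

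The genes, lists and tests were chosen with earlier results of these data known. The lists were YAP and TEAD targets, the Hippo pathway and TEAD factors, CCN receptors, SRF and MRTF targets, and markers of endothelium, fibroblasts, pericytes and smooth muscle, leukocytes (2 of 7 passed the filter), epithelium (0 of 6), heart muscle and parietal endoderm, the source of the gel (3 of 6). Named list genes were those with the smallest p among called genes, up to 4 per list and comparison; the text gives part of them, chosen for length after their values were seen. Alternatives covered the block, scaling, offset, filters, probe sets, trend, the arrays fitted and left-out arrays, 26 in all.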

Additional observations from a re-analysis of the deposited data

How the results depend on the processing

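The number of the 6 genes past the threshold at 5 h against 1 h (2) was 1 without the trend, with every probe set above the filter tested, without the filter and with quantile normalization, 0 with only the 6 arrays of the 2 times, 0 without the 4 arrays numbered 1, and 0 to 2 without 1 array. At 15 h against 1 h (3) it was 5 with the replicate block, alone, with quantile normalization, without the arrays numbered 1 or without 1 h replicate 2, 1 without the arrays numbered 1 and no block, and 2 to 5 without 1 array. From 5 to 15 h (0) it was 1 with median centring and 2 with the block, alone, with quantile normalization or without 1 h replicate 2. From 5 to 25 h (1) it was 2 without the trend, with median centring or with the offset, 3 with only the 6 arrays, 4 with the block or with it and without 1 h replicate 2, 3 with the block and quantile normalization or no arrays numbered 1, and 1 to 2 without 1 array. From 15 to 25 h (0) it was 1 with the block, alone, with quantile normalization or without 1 h replicate 2, and 0 to 1 without 1 array. Over the 4 times (4) it was 2 without the arrays numbered 1. At 25 h against 1 h (4) it was 6 with the block and 3 to 6 without 1 array, and it moved by no more than 1.5 times in any alternative run. The block changed no call of the 6 genes other than those given with them. The setting without 1 h replicate 2 and with the block was added after seeing the data. Changes that turned sign were all short of the threshold: Amotl2 from 5 to 15 h with median centring (-0.041), Ankrd1 from 5 to 15 h without the arrays numbered 1, with or without the block (-0.002), Ccn2 from 15 to 25 h there (0.021), and Ccn5 at 15 h against 1 h there (-0.063) and with quantile normalization, with or without the block (-0.218; -0.021 from 5 h). Without 1 array the ranges were -0.076 to 0.256 for Amotl2 from 15 to 25 h, -0.191 to 1.235 and -0.654 to 0.369 for Ankrd1 from 5 to 15 and 5 to 25 h, -0.605 to 0.089 for Ccn2 from 15 to 25 h, and -0.21 to 0.618 and -0.624 to 0.204 for Ccn5 at 15 and 5 h against 1 h. Genes called of all 7379 went from 122 to 573 with the block and 3 without the arrays numbered 1 at 5 h, from 1756 to 2969 and 470 at 15 h, from 1068 to 2415 and 3 from 5 to 15 h, and from 57 to 314 and 0 from 15 to 25 h. Without those arrays they were 1559 at 25 h (2705) and 1198 from 5 to 25 h (2362), and over the 4 times 1035, or 4069 with the block (2576). Called genes of the lists without those arrays were 2 of 5 for YAP and TEAD targets, 1 of 6 for the Hippo list, 2 of 5 for CCN receptors and 2 of 8 for SRF targets at 15 h. The causes of these moves were not tested. Ccn3 and much of Ccn5 lie too near background for a fold to be read.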
